A study of Mus musculus with 8 samples.

Results

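Zic2, Zic5, Gli1, Gli2, Gli3, Ptch1, Smo and Sufu, the Zic and Gli zinc finger factors together with the receptors and the inhibitor of Hedgehog signalling, were followed through 4 groups of mouse embryonic stem cells. They were chosen by name, as 8 of the 55421 genes counted, and all 8 passed the filter on low counts that left 14647 genes for testing. The cells carried a 129/Ola background and belonged, per the series design, to the E14 line. All 4 groups lacked the miR-290-295 microRNA cluster, also the control group, so no comparison here involves cells with that cluster. Cells grew in serum with LIF, a cytokine that maintains self-renewal, and were collected 36 h after transfection with a siPOOL at 5 nM, that is, a pool of many siRNAs directed at 1 transcript. The siPOOLs were directed at Tfap4 (siTfap4), Wiz (siWiz) or Zic2 (siZic2), and a negative control siPOOL (siNeg) made the remaining group. Each group held 2 libraries, described as biological duplicates. Whether these were separate cultures or transfections is not stated, so p-values measure the spread between these libraries, which may be technical.

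Hedgehog ligands bind the receptor Ptch1, which otherwise keeps the transmembrane protein Smo inactive. Active Smo, working at the primary cilium, frees the Gli factors from their inhibitor Sufu: Gli2 is mainly an activator of transcription, Gli3 is mainly processed into a repressor, and Gli1 and Ptch1 are themselves transcriptional targets of the pathway. The Zic factors have zinc fingers related to those of the Gli factors, and Zic2 is known in pluripotent stem cells as an enhancer-binding factor, while Zic5 is its divergent neighbour on the same chromosome. Tfap4 binds E-boxes through a basic helix-loop-helix domain, and Wiz is a zinc finger partner of histone methyltransferases.

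RNA was measured with a 3' end method that yields about 1 read per transcript, so levels are given as CPM after scaling the libraries by TMM factors and were not divided by length. The siTfap4 libraries held 8326675 and 8829051 reads, those of siWiz 11200948 and 10544436, those of siZic2 13788856 and 9328709 and those of siNeg 11395211 and 10795092, so that 1 read was worth 0.0693 to 0.124 CPM. The siTfap4 libraries lay farther from the others than those did among themselves, replicate 1 most of all. They had the lowest totals. Their root mean square distance in log2 CPM to libraries of the other groups was 0.55 to 1.19, against 0.26 to 0.54 among the other 6 libraries. Replicate 1 of siTfap4 lay at least 0.96 from each of these 6. Replicate 2 lay 0.55 from siWiz replicate 2, nearer than to siTfap4 replicate 1 (0.58). Tfap4 itself held 12.0 and 15.7 CPM in siTfap4, against 33.4 and 37.1 CPM in siNeg, and Wiz held 16.8 and 19.7 CPM in siWiz, against 49.9 and 46.1 CPM in siNeg. Of the cell type labelled, the 10 stem cell markers summed to 2987 to 3038 CPM in siTfap4, 3109 to 3389 CPM in siWiz, 3456 to 3607 CPM in siZic2 and 3304 to 3453 CPM in siNeg, with 2 markers higher and 1 lower in siTfap4 than in siNeg. Because RNA came from bulk cultures, fewer cells that express a gene and less RNA per cell cannot be told apart.

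The 300 bases from 250 before to 50 after the annotated start (RefSeq, GRCm38.p6) are shown for Gli2 and Ptch1, the members that fell in siTfap4, and for Zic5, which shares its locus with the targeted gene Zic2. The table held such a window for 6 of the 8 members. The Gli2 window is chr1:119053570-119053869, the Ptch1 window chr13:63565686-63565985 (a start inside the GENCODE gene model) and the Zic5 window chr14:122465609-122465908, all read on the minus strand. Capitals mark an E-box, CANNTG, searched on both strands.
Gli2: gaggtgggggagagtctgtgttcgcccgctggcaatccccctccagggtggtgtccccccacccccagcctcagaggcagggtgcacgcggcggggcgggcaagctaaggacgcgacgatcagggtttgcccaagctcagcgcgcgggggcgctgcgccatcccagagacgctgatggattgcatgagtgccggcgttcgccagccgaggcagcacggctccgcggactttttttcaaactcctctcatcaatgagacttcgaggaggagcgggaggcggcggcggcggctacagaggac
Ptch1: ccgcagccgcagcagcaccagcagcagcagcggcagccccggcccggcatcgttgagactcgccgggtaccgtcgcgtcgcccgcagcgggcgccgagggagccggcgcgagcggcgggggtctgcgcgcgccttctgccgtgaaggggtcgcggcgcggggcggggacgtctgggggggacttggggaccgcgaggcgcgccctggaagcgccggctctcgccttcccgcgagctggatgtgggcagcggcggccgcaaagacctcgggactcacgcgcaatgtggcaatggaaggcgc
Zic5: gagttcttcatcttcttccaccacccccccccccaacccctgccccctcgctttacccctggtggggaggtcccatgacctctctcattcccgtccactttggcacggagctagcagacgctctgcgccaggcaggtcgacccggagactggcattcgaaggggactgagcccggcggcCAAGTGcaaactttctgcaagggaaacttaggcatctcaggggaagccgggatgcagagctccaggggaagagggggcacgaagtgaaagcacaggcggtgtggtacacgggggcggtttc
The windows of Gli2 and Ptch1 held 0 E-boxes, and that of Zic5 held 1, CAAGTG. Among the member windows not shown, that of Smo, which did not fall, also held 0, and those of Gli3 and Sufu held 1 each. Over 32851 promoter windows of the same length, 72.3% held an E-box. The form CAGCTG, preferred by Tfap4 and itself a case of CANNTG, was in 0 of the 6 member windows and in 16.3% of all windows. The Gli site GACCACCCA was in 0 of the 6 and in 0.253% of all windows. The GC content was 67.3% for Gli2, 76.3% for Ptch1 and 62.7% for Zic5. These are matches of letters in short windows and say nothing of binding.

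**Figure D1:**
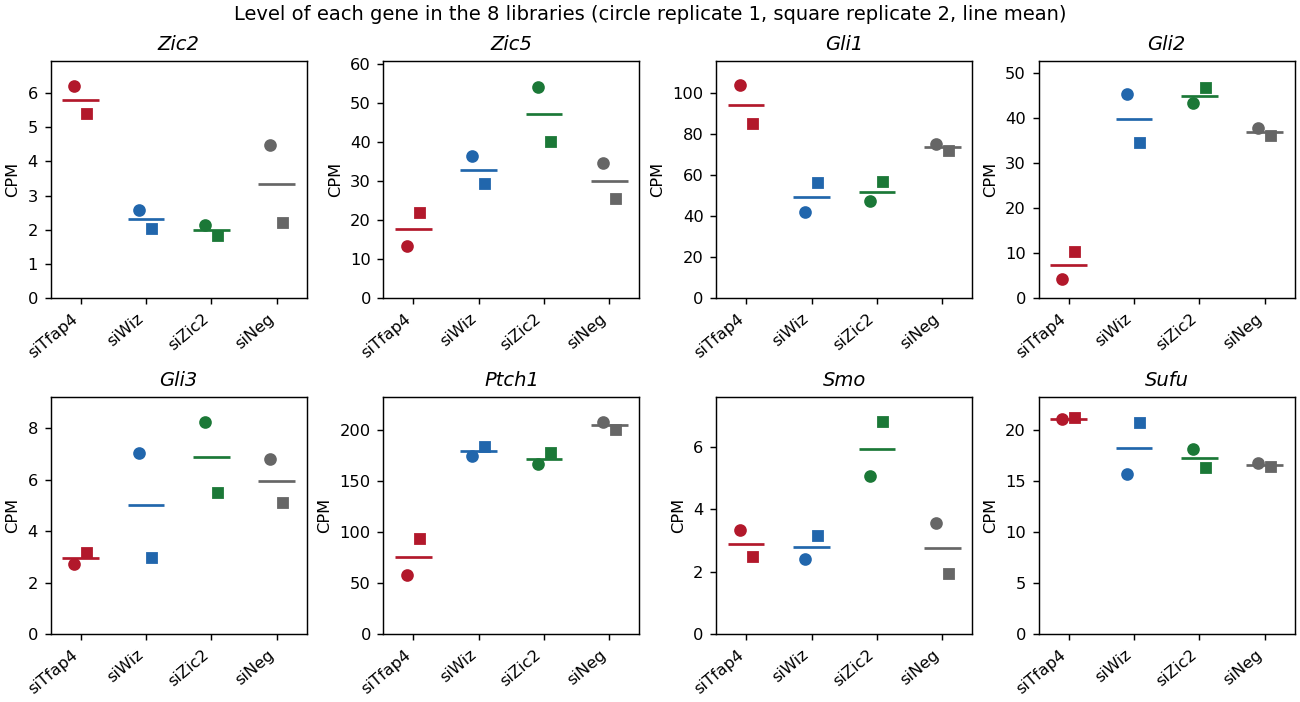
Level of each of the 8 genes in CPM (linear axis from 0) in the 4 siPOOL groups. Circles are replicate 1, squares replicate 2 and lines the mean of the 2 libraries. Both siTfap4 libraries lie below the other 6 for Gli2, Ptch1 and Zic5 and above them for Gli1, Zic2 and Sufu. The share of all genes with such a separation was not counted.

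The comparison of siTfap4 with siNeg addresses how transcripts of these cells respond to a siPOOL against Tfap4. Among the members, the activator Gli2 and the receptor Ptch1 fell, 5.06-fold and 2.70-fold, while the other 6 did not pass. In the same comparison 15.9% of all 14647 genes were called, 4.24% as higher and 11.7% as lower, and beside that background the 2 lower calls mark nothing particular to the list. At an unadjusted p under 0.05 there were 4 of the 8 members, beside 32.4% of all genes. The median log2 fold change was -0.35 over the members and 0.01 over all tested genes. Adjusted p-values here come from the quasi-likelihood test of edgeR, corrected over the 14647 genes by the Benjamini-Hochberg method.

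Ptch1, the receptor (ENSMUSG00000021466; GRCm38 chromosome 13, 63508328 to 63573598, minus strand), had the highest summed counts of the 8. Its level was 57.4 and 93.3 CPM in siTfap4, 174 and 183 CPM in siWiz, 166 and 177 CPM in siZic2, and 207 and 200 CPM in siNeg. Both siTfap4 libraries lay below all 6 others, and the siNeg libraries were the highest pair. In siTfap4 Ptch1 averaged 75.4 ± 25.4 CPM, against 204 ± 5.26 CPM in siNeg (SD, n = 2 each), or 37.0% of the control (log2 fold change -1.43, SE 0.25, 95% confidence interval -1.98 to -0.89, adjusted p = 0.00312). The fall was called under each of 17 other ways to process the data, with log2 fold changes of -1.84 to -1.13 and an adjusted p of at most 0.0282. The 2 siTfap4 libraries differed from each other more than those of any other group did.

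Smo, the transmembrane protein that Ptch1 restrains (ENSMUSG00000001761; chromosome 6, 29735503 to 29761365, plus strand), was among the lowest members. It held 3.35 and 2.46 CPM in siTfap4, 2.41 and 3.15 CPM in siWiz, 5.06 and 6.78 CPM in siZic2, and 3.57 and 1.92 CPM in siNeg, with 20 to 73 counts in a library. The siTfap4 and siNeg values overlapped (log2 fold change 0.07, SE 0.45, interval -0.90 to 1.04, adjusted p = 0.934), and the sign turned when siTfap4 replicate 1 (-0.18) or siNeg replicate 2 (-0.31) was left out. A 2-fold rise of Smo lies inside this interval, so these libraries do not exclude a rise of that size.

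Sufu, the cytoplasmic inhibitor of the Gli factors (ENSMUSG00000025231; chromosome 19, 46396896 to 46488804, plus strand), varied little. It held 21.1 and 21.2 CPM in siTfap4, 15.7 and 20.7 CPM in siWiz, 18.1 and 16.3 CPM in siZic2, and 16.8 and 16.4 CPM in siNeg. Both siTfap4 libraries were above every other library. The difference from siNeg did not pass the test (log2 fold change 0.35, SE 0.25, interval -0.19 to 0.89, adjusted p = 0.360).

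Gli2, the main activator (ENSMUSG00000048402; chromosome 1, 118834132 to 119053619, minus strand), had the largest loss of the 8. It held 4.34 and 10.2 CPM in siTfap4, from 35 and 87 counts. In the other groups it held 45.3 and 34.5 CPM in siWiz, 43.4 and 46.7 CPM in siZic2, and 37.8 and 36.1 CPM in siNeg. The 6 libraries outside siTfap4 spanned 34.5 to 46.7 CPM, and the siTfap4 pair lay far below that range. The level averaged 7.27 ± 4.14 CPM in siTfap4 and 37.0 ± 1.20 CPM in siNeg (SD, n = 2 each), 19.7% of the control, with a log2 fold change of -2.34 (SE 0.34, interval -3.07 to -1.61, adjusted p = 0.00114). The call held under each of the 17 alternatives, but its size rested on single libraries: the log2 fold change was -3.10 without siTfap4 replicate 2 and -1.87 without siTfap4 replicate 1. Ordered by fold change, Gli2 stood at place 373 and Ptch1 at place 943 of the 1709 genes called lower.

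Gli3, the main repressor (ENSMUSG00000021318; chromosome 13, 15463235 to 15730026, plus strand), had few reads, 22 to 119 in a library. It held 2.73 and 3.17 CPM in siTfap4, 7.04 and 2.96 CPM in siWiz, 8.25 and 5.49 CPM in siZic2, and 6.82 and 5.09 CPM in siNeg. The siTfap4 libraries were below both siNeg libraries and overlapped siWiz. The log2 fold change against siNeg was -1.01 (SE 0.45, interval -1.99 to -0.04; unadjusted p = 0.0423, adjusted p = 0.140), and it did not pass.

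Gli1, the target gene that amplifies the response (ENSMUSG00000025407; chromosome 10, 127329882 to 127341974, minus strand), did not share the fall of Gli2 and Ptch1. It held 104 and 85.1 CPM in siTfap4, 42.1 and 56.3 CPM in siWiz, 47.3 and 56.5 CPM in siZic2, and 75.1 and 71.9 CPM in siNeg. Both siTfap4 libraries were above all others, and both siNeg libraries above those of siWiz and siZic2. The difference between siTfap4 and siNeg was a log2 fold change of 0.36 (SE 0.24, interval -0.15 to 0.87, adjusted p = 0.308), not past the test. The transcript end of Gli1, unlike those of the other 7 members, overlaps another gene. Its last 300 bases overlap an exon of Arhgap9 on the opposite strand, and the strand setting of the counting is not given in the sources used here. Arhgap9 held 12.0 and 12.9 CPM in siTfap4, 8.20 and 11.2 CPM in siWiz, 7.90 and 8.17 CPM in siZic2, and 6.90 and 11.5 CPM in siNeg, and its part in the Gli1 values was not tested.

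Zic2, the enhancer-binding factor targeted in siZic2 (ENSMUSG00000061524; chromosome 14, 122475435 to 122479852, plus strand), had 17 to 54 counts in a library. It held 6.20 and 5.39 CPM in siTfap4, 2.59 and 2.01 CPM in siWiz, 2.15 and 1.83 CPM in siZic2, and 4.49 and 2.21 CPM in siNeg. Both siTfap4 libraries were the highest of the 8, while the siNeg pair was split, its replicate 1 nearer to siTfap4 and its replicate 2 within the range of siWiz. The log2 fold change of siTfap4 against siNeg was 0.78 (SE 0.43, interval -0.15 to 1.71, adjusted p = 0.230). Leaving out siNeg replicate 1 gave 1.40 and leaving out siNeg replicate 2 gave 0.36, and the value reached 1.25 (adjusted p = 0.0425) when GC content and length were corrected for, within a range of adjusted p from 0.0425 to 0.660 over the alternatives.

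Zic5, the neighbour of Zic2 (ENSMUSG00000041703; chromosome 14, 122456795 to 122465677, minus strand), has its start 9758 bp from that of Zic2 and is read in the opposite direction. It held 13.5 and 21.8 CPM in siTfap4, 36.5 and 29.4 CPM in siWiz, 54.3 and 40.2 CPM in siZic2, and 34.8 and 25.4 CPM in siNeg. The siTfap4 libraries were the lowest and the siZic2 libraries the highest pair, and neither overlapped another group. Against siNeg, Zic5 in siTfap4 had a log2 fold change of -0.77 (SE 0.30, interval -1.40 to -0.13; unadjusted p = 0.0214, adjusted p = 0.0912) and did not pass. Without siTfap4 replicate 2 it was -1.17 (adjusted p = 0.0257), and with the correction for GC content and length it was -0.37 (adjusted p = 0.282), with adjusted p from 0.0257 to 0.453 over the alternatives.

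**Figure D2:**
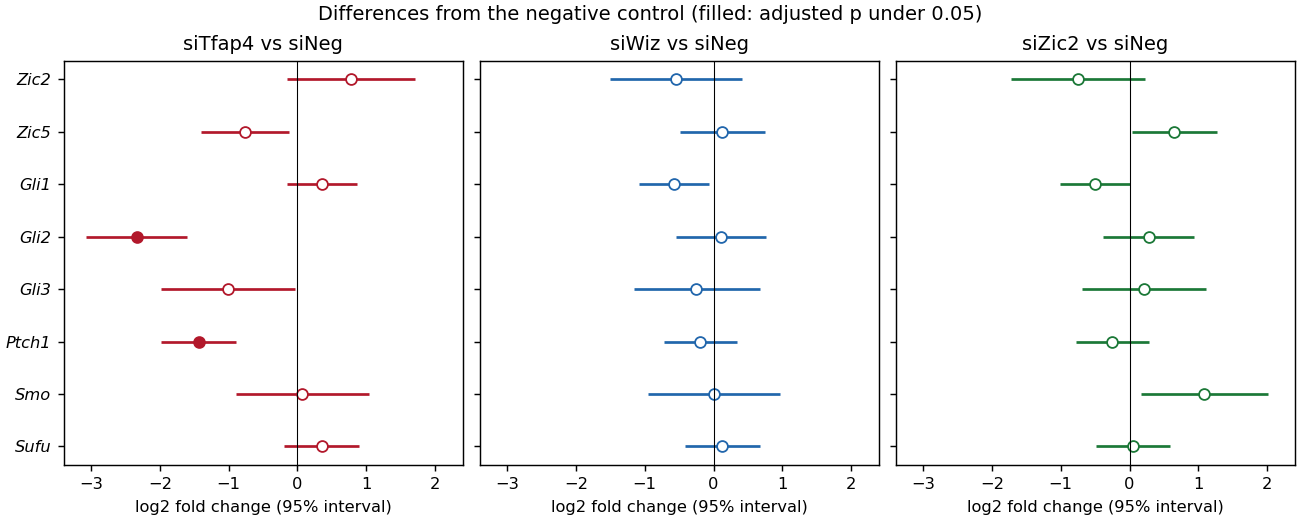
Log2 fold change with its 95% interval for each of the 8 genes in siTfap4, siWiz and siZic2, each against siNeg. Filled circles mark an adjusted p under 0.05. Only Gli2 (-2.34) and Ptch1 (-1.43) in siTfap4 are filled.

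The comparison of siWiz with siNeg gave no called member, and none of the 14647 genes was called by edgeR (0% called; 266 genes, 1.82%, had an unadjusted p under 0.05, and DESeq2 called 1 gene). Wiz, the targeted gene, had a log2 fold change of -1.40 (SE 0.24, edgeR unadjusted p = 4.83e-05) and did not pass either (adjusted p = 0.708). The absence of calls in siWiz therefore does not show that genes were unchanged. Among the members the median log2 fold change was -0.09, and all adjusted p-values were 1.00. Gli1 was the member farthest from the control, at 49.2 ± 10.1 CPM in siWiz against 73.5 ± 2.25 CPM in siNeg (log2 fold change -0.58, SE 0.24, interval -1.09 to -0.07, unadjusted p = 0.0292). Its siWiz and siNeg libraries did not overlap, which 2 libraries per group can also show without a difference. Ptch1 averaged 179 ± 6.23 CPM in siWiz and 204 ± 5.26 CPM in siNeg, also without overlap, with a log2 fold change of -0.19 (interval -0.72 to 0.34). For Gli2 the log2 fold change was 0.11 (interval -0.55 to 0.77), so a loss of the size seen in siTfap4 lies outside this interval. Zic2 stood at -0.55 (interval -1.51 to 0.42), Zic5 at 0.13, Gli3 at -0.25, Smo at 0.01 and Sufu at 0.13, each with overlapping libraries.

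The comparison of siZic2 with siNeg tests the siPOOL directed at a member. Zic2 averaged 1.99 ± 0.226 CPM in siZic2 and 3.35 ± 1.61 CPM in siNeg, 59.5% of the control, and this difference did not pass (log2 fold change -0.75, SE 0.45, interval -1.72 to 0.22, unadjusted p = 0.120, adjusted p = 1.00). The controls decided its size: leaving out siNeg replicate 1 gave -0.11, and leaving out siNeg replicate 2 gave -1.16. The siZic2 libraries (2.15 and 1.83 CPM) also overlapped those of siWiz (2.59 and 2.01 CPM), a group in which Zic2 was not targeted. None of the 14647 genes was called by edgeR (0% called), DESeq2 called 0, and 0 of the 8 members were called. An unadjusted p under 0.05 was found for 86 genes (0.587%). This share, like the 1.82% in siWiz, is below the 0.05 expected where nothing differs. The test may thus have been cautious here, and a gene that was not called is not shown to be unchanged.

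Beyond Zic2, the siZic2 libraries had the highest Smo and Zic5 of all groups. The group means of Gli2 and Gli3 were also highest in siZic2, but their libraries overlapped those of the next group. Smo averaged 5.92 ± 1.21 CPM in siZic2, against 2.75 ± 1.17 CPM in siNeg (2.12-fold; log2 fold change 1.09, SE 0.43, interval 0.17 to 2.01, unadjusted p = 0.0238, adjusted p = 1.00). Zic5 averaged 47.3 ± 9.97 CPM in siZic2, against 30.1 ± 6.69 CPM in siNeg (1.57-fold; log2 fold change 0.65, SE 0.29, interval 0.03 to 1.27, unadjusted p = 0.0401, adjusted p = 1.00). Neither passed the test. Their siZic2 and siNeg libraries did not overlap, but neither did those of Zic2, Gli1, Gli2 and Ptch1. The share of all genes for which this holds was not counted. Without siNeg replicate 1 the log2 fold change of Smo was 1.64, and without siNeg replicate 2 it was 0.72. Gli1 had 51.9 ± 6.51 CPM in siZic2 against 73.5 ± 2.25 CPM in siNeg (log2 fold change -0.50, interval -1.01 to 0.01). Gli2 at 0.28, Gli3 at 0.21, Ptch1 at -0.25 and Sufu at 0.05 completed the 8. The comparisons with siNeg share the same control libraries, so a high or low siNeg library moves all of them.

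Set against the other targeting siPOOLs, siTfap4 kept its low Gli2 and Ptch1. Gli2 was 5.46-fold lower than in siWiz (log2 fold change -2.45, SE 0.34, adjusted p = 0.00113) and 6.16-fold lower than in siZic2 (log2 fold change -2.62, SE 0.34, adjusted p = 4.25e-04). Ptch1 was 2.37-fold lower than in siWiz (log2 fold change -1.24, SE 0.25, adjusted p = 0.00729) and 2.27-fold lower than in siZic2 (log2 fold change -1.18, SE 0.25, adjusted p = 0.00623). Without siTfap4 replicate 1, Ptch1 did not pass against siWiz (-0.94, adjusted p = 0.0674; range over alternatives 1.00e-04 to 0.0674) or against siZic2 (-0.88, adjusted p = 0.0557; range 1.08e-04 to 0.0557). Of all genes tested, 15.1% were called between siTfap4 and siWiz (4.66% higher, 10.4% lower) and 23.1% between siTfap4 and siZic2 (8.41% higher, 14.7% lower).

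Zic2 was 2.89-fold higher in siTfap4 than in siZic2 (5.80 ± 0.570 CPM against 1.99 ± 0.226 CPM; log2 fold change 1.53, SE 0.45, adjusted p = 0.0275). That call was lost without siTfap4 replicate 1 (adjusted p = 0.136), without siZic2 replicate 1 (0.131) and without siZic2 replicate 2 (0.154), the lowest over the alternatives being 0.00447. Against siWiz its log2 fold change was 1.33 (adjusted p = 0.0601), and 6 of 16 alternatives called it, among them the one without the filter (adjusted p = 0.0369) and the correction for GC content and length (1.78, adjusted p = 0.0122; range over alternatives 0.0122 to 0.264). Gli1 and Zic5, which were chosen for these pairs after their values had been seen, showed opposite differences. Gli1 was higher in siTfap4 than in siWiz (log2 fold change 0.94, SE 0.24, adjusted p = 0.0197) and than in siZic2 (0.87, SE 0.24, adjusted p = 0.0204). Zic5 was lower in siTfap4 than in siZic2 (log2 fold change -1.42, SE 0.30, adjusted p = 0.00571), and against siWiz it did not pass (-0.90, adjusted p = 0.0563). The difference of Zic5 from siWiz was called by 4 of 17 alternatives, among them DESeq2 (adjusted p = 0.0377), no filter (0.0263) and siTfap4 replicate 2 left out (-1.29, adjusted p = 0.0157; range over alternatives 0.0157 to 0.352). Leaving out siTfap4 replicate 1 ended both Gli1 calls (adjusted p = 0.134 against siWiz and 0.125 against siZic2) and the Zic5 call (0.0593). The Gli1 calls also ended without siWiz replicate 1 (0.225), siZic2 replicate 1 (0.206) or siZic2 replicate 2 (0.0850), and the Zic5 call without siZic2 replicate 1 (0.0572). The lowest adjusted p over the alternatives was 0.00458 and 0.00831 for the Gli1 calls and 2.39e-05 for the Zic5 call. Gli3 did not pass between siTfap4 and siZic2 (log2 fold change -1.23, SE 0.45, adjusted p = 0.0643), but 5 of 17 alternatives called it, among them only the groups compared (adjusted p = 0.0419) and no filter (0.0227; range over alternatives 0.0227 to 0.335). Smo had a log2 fold change of -1.02 (adjusted p = 0.106) between siTfap4 and siZic2.

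**Figure D3:**
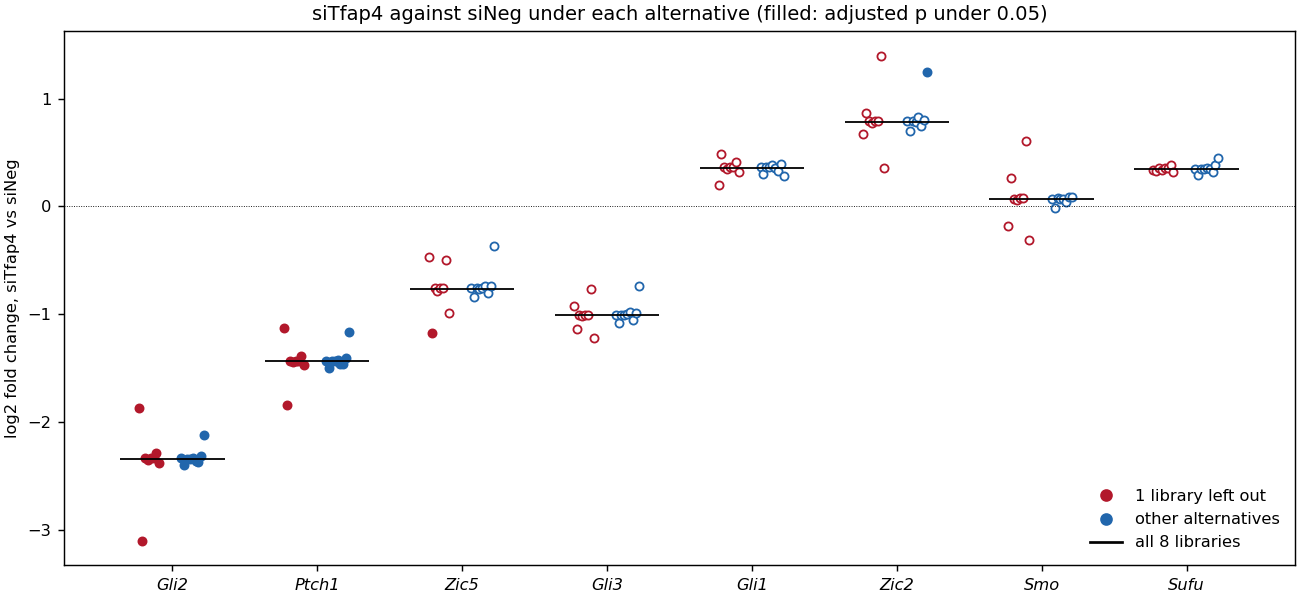
Log2 fold change of each of the 8 genes in siTfap4 against siNeg (vertical axis) under each alternative. Red circles are fits with 1 library left out, blue circles the other alternatives, filled where the adjusted p is under 0.05, and the black line is the value from all 8 libraries. Gli2 (-3.10 to -1.87) and Ptch1 (-1.84 to -1.13) are filled throughout, while Zic2 and Zic5 are each filled once.

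Ratios of counts taken within 1 library do not depend on how libraries are scaled, and they set Gli1 beside the members that fell. For each Gli2 read there were 23.9 and 8.34 Gli1 reads in the siTfap4 libraries, 0.929 and 1.63 in those of siWiz, 1.09 and 1.21 in those of siZic2, and 1.98 and 1.99 in those of siNeg. For each Ptch1 read there were 1.81 and 0.912 Gli1 reads in the siTfap4 libraries, 0.242 and 0.308 in those of siWiz, 0.285 and 0.320 in those of siZic2, and 0.362 and 0.359 in those of siNeg. The 2 siTfap4 libraries were above all others in both ratios and differed from each other, replicate 1 being the more extreme. This order follows from the levels above, Gli1 being highest and Gli2 and Ptch1 lowest in siTfap4, so it is no separate result. Gli1 over Arhgap9 was 8.63 and 6.60 in siTfap4 and 10.9 and 6.23 in siNeg. It was 5.13 and 5.04 in siWiz and 5.98 and 6.91 in siZic2, so siTfap4 overlapped siZic2 and siNeg. Gli2 over Sufu, the activator over its inhibitor, was 0.206 and 0.481 in siTfap4 and 2.25 and 2.20 in siNeg. These ratios describe reads of different transcripts and are compared only between libraries.

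In the Zic locus, Zic5 reads per Zic2 read numbered 2.18 and 4.04 for siTfap4, 14.1 and 14.7 for siWiz, 25.3 and 22.0 for siZic2, and 7.76 and 11.5 for siNeg. The 4 groups did not overlap in this ratio, siTfap4 being lowest and siZic2 highest. No test was made on it, and the share of gene pairs that separate the groups in this way was not counted. In siTfap4 the Zic2 values lay above and the Zic5 values below those of all other libraries, on Zic2 counts of at most 54 in a library. The low siTfap4 ratio follows from these levels. The high siZic2 ratio likewise follows from the levels of siZic2, where mean Zic5 was highest and mean Zic2, the targeted gene, lowest. Neither is a separate result.

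**Figure D4:**
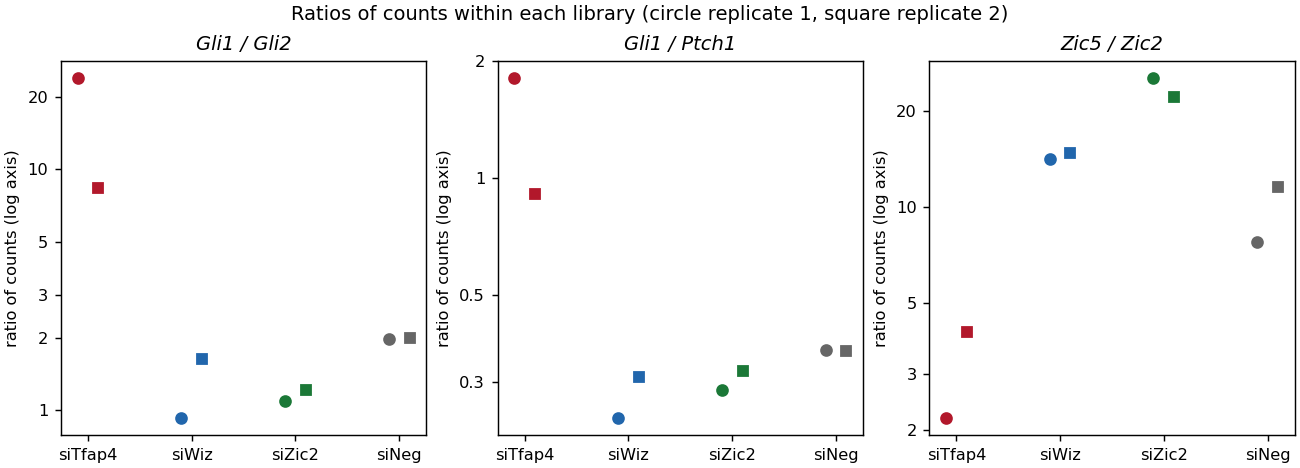
Ratio of counts within each library for Gli1 over Gli2, Gli1 over Ptch1 and Zic5 over Zic2 (vertical axes, logarithmic), by siPOOL group. Circles are replicate 1 and squares replicate 2. The siTfap4 libraries are the highest in both Gli1 ratios (23.9 and 8.34 over Gli2) and the lowest in Zic5 over Zic2 (2.18 and 4.04).

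Another 6 lists of pathway genes were read from the same comparison of siTfap4 with siNeg, 92 genes of which 81 were tested. Of the 81, 3 were called higher (3.70%), 13 lower (16.0%) and 65 did not pass, beside 4.24% and 11.7% of all genes tested, and the median log2 fold change was -0.04. Of the 16 called genes, 14 lost the call without siTfap4 replicate 1 and 12 without siNeg replicate 1. Ccnd1 and Dync2li1 kept it under all 17 alternatives. The counts for each list below stand beside the same 4.24% higher and 11.7% lower of all genes tested.

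Among 6 other receptors and co-receptors, 5 were tested and 2 fell, beside 11.7% of all genes called lower, with a list median of -0.65. Gpc3, a glypican that binds Hedgehog ligands, fell with a log2 fold change of -1.41 (SE 0.33, adjusted p = 0.0147), and Lrp2, an endocytic co-receptor, with -1.42 (SE 0.43, adjusted p = 0.0390). Leaving out siTfap4 replicate 1 or siNeg replicate 1 ended both calls, and leaving out siTfap4 replicate 2 also ended that of Lrp2. Hhip, a decoy receptor and target gene, held 49.0 and 49.6 CPM in siTfap4, against 79.6 and 61.4 CPM in siNeg (adjusted p = 0.131).

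The ligands themselves were scarce. Shh had 0 counts in all 8 libraries, which allows up to 0.0356 CPM over their 84208978 reads, and Ihh had 6 counts in all. Dhh had 31 counts, 15 of them in siTfap4 (2 and 13) against 2 in siNeg (0 and 2), and was not tested. Of 8 genes for ligands, their acylation and their release, 4 were tested. Disp1, which releases lipidated ligand, was higher in siTfap4 (16.7 and 15.1 CPM, against 5.99 and 8.84 CPM in siNeg; log2 fold change 1.11, SE 0.30, adjusted p = 0.0267). Scube3, a secreted release factor, was lower (0.868 and 0.469 CPM, against 2.91 and 2.69 CPM in siNeg; log2 fold change -2.06, adjusted p = 0.0323) on 4 to 35 counts in these libraries. The list median was -0.65.

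Of 31 regulators between Smo and the Gli factors, 30 were tested, 1 rose, 2 fell and 27 did not pass, with a median of 0.12. Tulp3, which carries receptors into the cilium and restrains the pathway in mouse, fell to 3.97 and 7.62 CPM in siTfap4, against 21.8 and 18.5 CPM in siNeg (log2 fold change -1.79, SE 0.39, adjusted p = 0.00898). Kif7, a kinesin that organises Gli factors at the ciliary tip, fell to 3.97 and 7.27 CPM in siTfap4, against 14.0 and 15.3 CPM in siNeg (log2 fold change -1.37, SE 0.34, adjusted p = 0.0171). Evc, a ciliary partner of Smo, rose to 30.3 and 22.9 CPM in siTfap4, against 13.1 and 13.1 CPM in siNeg (log2 fold change 1.02, SE 0.28, adjusted p = 0.0274). All 3 calls were lost without siTfap4 replicate 1.

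The cilium list, 30 genes of intraflagellar transport and the transition zone, had all 30 tested, with 1 higher, 5 lower, 24 that did not pass and a median of -0.03. Dync2li1, a light intermediate chain of the retrograde motor, fell to 0.992 and 1.88 CPM in siTfap4, against 8.73 and 5.96 CPM in siNeg (log2 fold change -2.34, SE 0.42, adjusted p = 0.00339). Tmem67 of the transition zone fell with a log2 fold change of -1.74 (adjusted p = 0.0131). Within the retrograde transport complex, Wdr35 (-1.09, adjusted p = 0.0137), Wdr19 (-1.11, adjusted p = 0.0236) and Ift43 (-1.11, adjusted p = 0.0419) were lower. Ift122 of the same complex was higher (0.84, adjusted p = 0.0495), and its call was lost under 10 of the 17 alternatives.

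Among 13 described target genes, 10 were tested, 0 rose, 3 fell and 7 did not pass, with a median of -0.30. Ccnd1, a cyclin of the first gap phase, fell to 80.7 and 106 CPM in siTfap4, against 214 and 239 CPM in siNeg (log2 fold change -1.28, SE 0.23, adjusted p = 0.00339). Snai1, a zinc finger repressor, fell to 0.372 and 1.29 CPM in siTfap4, against 4.82 and 3.75 CPM in siNeg (log2 fold change -2.34, SE 0.53, adjusted p = 0.0121). On its 3 and 11 counts in siTfap4 the value was -1.73 without siTfap4 replicate 1 (adjusted p = 0.113) and -3.50 without siTfap4 replicate 2, and the call was also lost without siNeg replicate 1 (0.0716; lowest over alternatives 2.59e-04). Mycn, a Myc family factor, fell to 34.6 and 84.8 CPM in siTfap4, against 138 and 141 CPM in siNeg (log2 fold change -1.23, SE 0.33, adjusted p = 0.0248). Its value was -0.73 without siTfap4 replicate 1 (adjusted p = 0.151) and -2.03 without siTfap4 replicate 2. The Mycn call was also lost without siNeg replicate 1 (0.0880), without siNeg replicate 2 (0.0560) and with the correction for GC content and length (-0.76, adjusted p = 0.0839; lowest over alternatives 1.56e-04). Many other pathways also act on Ccnd1, Snai1 and Mycn. Foxf1, Nkx2-2 and Nkx6-1, targets in developing tissue, had 2 to 4 counts over all libraries and were not tested.

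Among 5 other Zic and Gli-similar factors, 3 were tested. Of these edgeR called 0, and 2 had an unadjusted p below 0.05. Glis2, a Gli-similar factor, averaged 15.6 ± 8.16 CPM in siTfap4 and 25.7 ± 6.53 CPM in siNeg (SD, n = 2 each; edgeR log2 fold change -0.72, SE 0.33, unadjusted p = 0.0478, adjusted p = 0.150), and these libraries overlapped. Without siTfap4 replicate 2 its log2 fold change was -1.40 (adjusted p = 0.00998; range over alternatives 0.00998 to 0.672). Glis1 held 1.12 and 0.352 CPM in siTfap4, against 0.0831 and 0.192 CPM in siNeg (unadjusted p = 0.0405, adjusted p = 0.136), with 12 counts in siTfap4 and 3 in siNeg. Zic1 and Zic4 had 5 and 6 counts over all libraries.

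In siWiz and siZic2 against siNeg, 0 of the 81 tested list genes were called, with 2 and 1 at an unadjusted p under 0.05. The smallest p in siWiz was for Glis1 (0.713 and 0.955 CPM in siWiz, against 0.0831 and 0.192 CPM in siNeg, unadjusted p = 0.0233; with 18 counts in siWiz and 3 in siNeg no fold is given), followed by Hhat, the ligand acyltransferase (-1.29, unadjusted p = 0.0449). In siZic2 it was for Boc, a co-receptor, with 1.04 and 0.861 CPM in siZic2, against 2.08 and 2.31 CPM in siNeg (-1.18, unadjusted p = 0.0465). All had an adjusted p of 1.00.

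**Figure D5:**
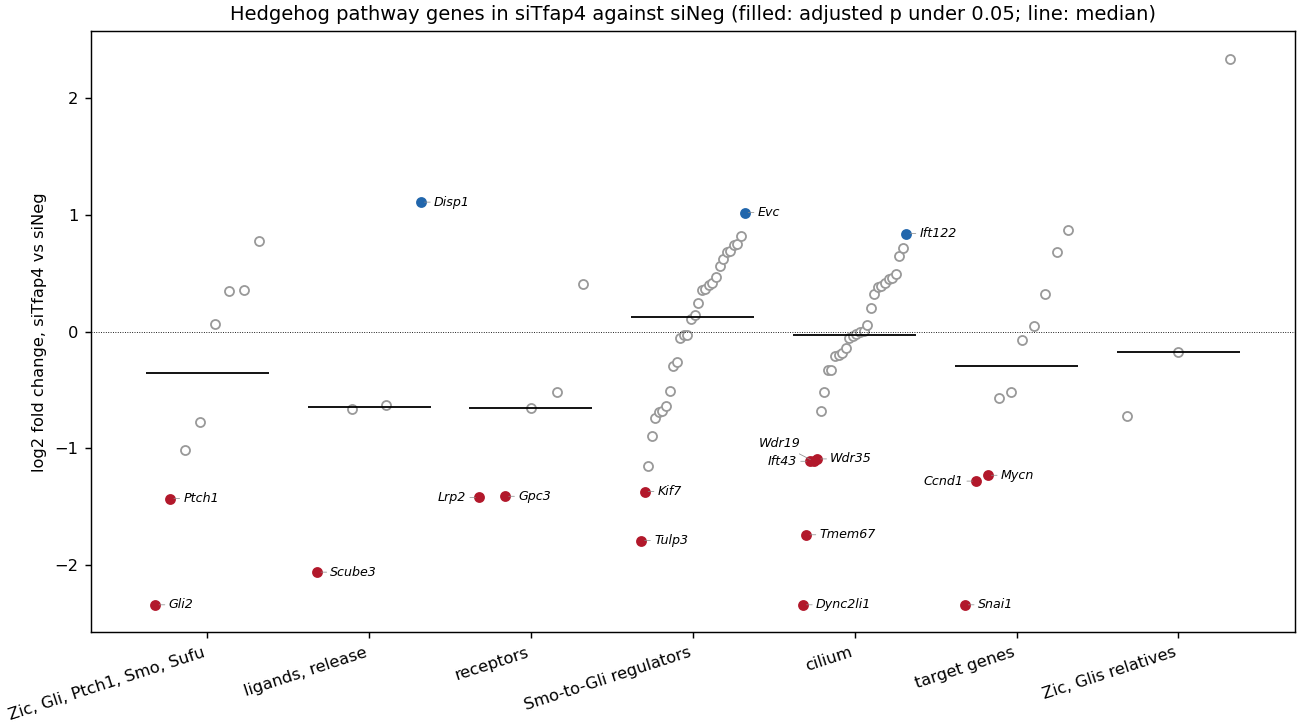
Log2 fold change in siTfap4 against siNeg (vertical axis) of the 8 members and of each tested gene of the 6 pathway lists, ordered by value within a list. Filled circles passed an adjusted p under 0.05, red lower and blue higher, and horizontal lines are list medians. Gli2, Dync2li1 and Snai1 (-2.34 each) lie among the lowest called genes, while most of the regulators and cilium genes did not pass.

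Markers of cell states were read beside these values, against 4.24% of all genes tested called higher and 11.7% called lower in siTfap4 than in siNeg. The called marker genes are named here because they are few, after their values were seen. Of the 10 stem cell markers, edgeR called 3. Nanog, a pluripotency factor, fell to 77.6 and 178 CPM in siTfap4, against 399 and 314 CPM in siNeg (log2 fold change -1.48, SE 0.35, adjusted p = 0.0142; range over alternatives 9.01e-07 to 0.111). Pou5f1, another pluripotency factor, rose to 57.4 and 48.1 CPM in siTfap4, against 24.4 and 27.5 CPM in siNeg (log2 fold change 1.02, SE 0.25, adjusted p = 0.0159; range 0.00318 to 0.108); pseudogenes of Pou5f1 are known, so its level is uncertain. Lin28a, an RNA-binding protein, rose with a log2 fold change of 0.81 (SE 0.23, adjusted p = 0.0315; range 0.0125 to 0.216). Leaving out siTfap4 replicate 1 or siNeg replicate 1 ended each of these 3 calls.

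The 8 formative and primed epiblast markers summed to 284 to 306 CPM in siTfap4, 380 to 465 CPM in siWiz, 390 to 513 CPM in siZic2 and 302 to 477 CPM in siNeg, with 2 of 7 tested genes lower in siTfap4 than in siNeg. These were Foxd3 (4.71 and 13.4 CPM in siTfap4, against 69.1 and 37.2 CPM in siNeg; log2 fold change -2.55, adjusted p = 0.00251), called under all 17 alternatives, with -3.51 without siTfap4 replicate 2, and Fgf15 (-1.30, adjusted p = 0.0396), for which 7 of 16 alternatives ended the call (range over alternatives 0.0283 to 0.251). The siTfap4 sums lay below those of siWiz and siZic2 and overlapped the lower siNeg sum. The 10 neural progenitor markers summed to 77.5 to 86.9 CPM in siTfap4 and 79.4 to 105 CPM in siNeg, with Neurog2 at 0 counts in all libraries and 5 of 10 under 1 CPM. Mesoderm markers summed to 9.30 to 12.9 CPM in siTfap4 and 11.5 to 13.0 CPM in siNeg, and primitive endoderm markers to 59.6 to 78.6 CPM in siTfap4 and 64.5 to 81.9 CPM in siNeg. Of the primitive endoderm markers 1 of 6 tested was lower, Sox7, with 0.248 and 0.586 CPM in siTfap4, against 2.49 and 1.44 CPM in siNeg (log2 fold change -2.20, adjusted p = 0.0440), and 9 of 16 alternatives ended that call (range 0.0222 to 0.278). Of the neural, mesoderm and fibroblast markers edgeR called 0 of the 5, 4 and 1 tested, with 2, 0 and 0 at an unadjusted p below 0.05. Fibroblast markers summed to 7.15 to 9.80 CPM in siTfap4 and 10.7 to 11.9 CPM in siNeg, with Postn at 0 and 7 of 8 under 1 CPM. The part of these cell states in the Gli2 and Ptch1 results was not tested.

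Over the 8 libraries the members fell into 2 directions. Log2 CPM of Gli2 correlated with that of Ptch1 (Pearson r = 0.97) and Zic5 (r = 0.89), and negatively with that of Zic2 (r = -0.83) and Gli1 (r = -0.82). Gli1 and Zic2 had r = 0.79 and Gli1 and Zic5 r = -0.84, while Smo had no r beyond 0.48 with any other member. The points share the group structure and depth, with the siTfap4 pair at one end, so these values are a description of 8 libraries. Of 9602 protein-coding genes compared, those most like Gli2 were Rpl7a (r = 0.998), Ube2g1 (0.998) and Unc50 (0.997). Rpl7a held 20.1 and 89.0 CPM in siTfap4, against 699 and 849 CPM in siNeg. The nearest to Ptch1 were Zik1 (0.994), Vdac1 (0.993) and Gm35315 (0.990), to Zic5 Zfp654 (0.991), Nfya (0.971) and Egln1 (0.971), and to Gli1 Msl2 (0.982), Brsk1 (0.982) and Gys1 (0.973). For Gli3 they were Zfp507 (0.986), Sesn3 (0.982) and Atr (0.981), and for Sufu Crtc1 (0.992), Clgn (0.972) and Stx17 (0.965). Zic2 and Smo averaged under 5 CPM and were not compared.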

How the data were processed

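Per the labels' protocols, Trizol RNA of 8 samples went into a QuantSeq 3' mRNA-Seq FWD kit. The authors deposited 1 table of raw read counts by Ensembl gene, without normalization. The submitters' processing notes name Trim Galore and GRCm38. Not given in the sources used here: aligner, counting program, annotation, strand setting, molecular identifiers. Hence floors (3 counts) cover counting error only, while the 95% intervals of fold changes come from the edgeR fit and include spread between libraries. Groups and replicate numbers came from the sample titles, and 0 columns were unmapped. Of 55421 genes, 55154 were matched to GENCODE release 21 and 267 were not. No member shared 50 bases at 95% identity in the last 500 bases with another gene. Duplicates differed beyond counting noise (a chi-square test gave 34.1 in siTfap4, 21.5 in siWiz, 19.6 in siZic2, 42.0 in siNeg per degree of freedom).

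Counts were filtered with filterByExpr, scaled with TMM and fitted with edgeR 4.0.16 in R 4.3.3 (quasi-likelihood test, 1 mean per group, all 8 libraries, no block), with Benjamini-Hochberg adjustment and a threshold of 0.05; "rose", "fell" and called "higher" or "lower" mean passing it. The common dispersion was 0.0495 (biological coefficient of variation 22.2%), with 4 residual and 9.70 prior degrees of freedom. Tested on simulated data for siTfap4 against siNeg (14218 genes), the fit recovered 21.0% of 100 genes changed by a log2 of 1 and 84.0% of 100 changed by 2, with 4 false calls. In the deposited data 15.9% of genes were called, a larger share than was changed in the simulation, so recovery there may differ. Named genes were the 8 members, up to 6 called genes of smallest p per list (2 where 0 were called), and the 3 protein-coding genes of at least 5 CPM most correlated with each member (log2 CPM, prior count 2). Alternatives were RLE factors, library totals, DESeq2 1.42.0, no filter, a mean of at least 5 CPM, only the groups compared, the replicate block, each library left out, both siTfap4 libraries left out and, chosen after seeing the data, protein-coding genes alone and with a spline correction for length and the GC content of the last 300 bases. Members, lists and tests were chosen with earlier results of these data known. Some genes of the lists are not reported here and were left out of the list counts and marker sums.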

Additional observations from a re-analysis of the deposited data

How the results depend on the processing

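Of 686 values for the members under alternatives, 640 kept their direction and side of the threshold, 12 lost a call, 17 gained one and 17 changed sign; for the other named genes it was 718 of 800, with 76 lost, 1 gained and 5 changed in sign. Genes called higher in siTfap4 against siNeg numbered 621 and moved to 1147 with the replicate block, 266 with only the groups compared, 1566 with the GC and length correction and 6 to 1143 with 1 library left out; those called lower numbered 1709 and moved to 498 to 2179. In siWiz against siNeg, 6 higher and 6 lower were called without the filter, and 1 lower by DESeq2. With 1 library left out, 2 to 3 members were called in siTfap4 against siNeg, and 1 to 3 of Gli2, Ptch1 and Zic2 against siWiz and against siZic2.

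Signs changed, none past the threshold, as follows. With 1 library left out, Smo ranged from -0.31 to 0.61 in siTfap4 against siNeg and from -0.18 to 0.26 in siTfap4 against siWiz. In siWiz against siNeg the ranges were -0.97 to 0.07 for Zic2, -0.08 to 0.39 for Zic5, -0.10 to 0.29 for Gli2, -1.01 to 0.24 for Gli3, -0.37 to 0.54 for Smo, -0.08 to 0.32 for Sufu and -0.36 to 0.15 for Glis2. In siZic2 against siNeg they were -0.09 to 0.48 for Gli3, -0.27 to 0.22 for Glis2, -0.44 to 0.08 for Disp1, -0.52 to 0.30 for Hhat and -0.55 to 0.05 for Arrb2. With library totals Smo was -0.01 in siTfap4 and -0.03 in siWiz, each against siNeg. In siWiz against siNeg it was also -0.01 with both siTfap4 libraries left out and -0.02 with the GC and length correction. The cause was not tested.

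Same-numbered libraries had correlated deviations in 5 of 6 group pairs (r = -0.10 to 0.48 over all 6). The 2 numbers per group name no shared batch, so whether same-numbered libraries were handled together is not known. The main fit did not pair them. With the replicate block Gli2 was -2.36 (edgeR adjusted p = 0.00125) and Ptch1 -1.46 (adjusted p = 0.00170). The block added calls for Zic2 (1.34, adjusted p = 0.0300) and Zic5 (-0.87, 0.0472) in siTfap4 against siWiz and for Gli3 (-1.17, 0.0384) in siTfap4 against siZic2, and changed no other call of a named gene. Zic2, Smo and Gli3 had the lowest mean levels of the members, at 17 to 119 counts in a library, with 2 libraries per group. The part of depth in their spread was not tested.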
